A study of Mus musculus with 18 samples.

Results

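The Schlafen genes studied here are Slfn1, Slfn2, Slfn3, Slfn4, Slfn5, Slfn8 and Slfn9, a family of mouse genes named for their first members' effects on the growth of thymocytes. They were taken by symbol from the authors' deposited DESeq2 tables for bone marrow and spleen, and all 7 were listed in both, among 14423 genes for bone marrow and 21830 for spleen. RNA came from suspended cells of C57BL/6 mice and was read by QuantSeq, which counts tags from the polyadenylated 3' end of a transcript, so a count does not scale with transcript length. Bone marrow was taken from Cgas-/- mice (4 libraries) and from Trex1-/-;Sting1gt/gt mice, called dKO (4 libraries). Spleen was taken from lethally irradiated dKO mice 12 weeks after transplantation of Cgas-/- marrow (5 libraries) or dKO marrow (5 libraries), so every spleen comes from a dKO host that can keep radioresistant cells of its own. Cgas-/- cells cannot make the second messenger cGAMP but have TREX1 and STING, whereas dKO cells lack the exonuclease TREX1 and a working STING, so each genotype breaks cytosolic DNA signalling at another step, and no group was wild type. Fold changes are given as Cgas-/- over dKO, or Cgas-/- marrow over dKO marrow, with the standard error after ±.

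Schlafen proteins share an N-terminal core that cuts or binds transfer RNA in several members, and most of the family's genes are induced by type I interferon in leukocytes. By size they fall into short proteins (group I, Slfn1 and Slfn2), intermediate ones (group II, Slfn3 and Slfn4) and long ones that add a helicase-like domain (group III, Slfn5, Slfn8 and Slfn9). Slfn2 is known for keeping T cells and monocytes quiescent and viable, and Slfn4 for its induction in macrophages and other myeloid cells.

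All 7 genes lie in 1 cluster on chromosome 11 (GRCm38, the assembly of mm10, GENCODE M21), which spans 263.8 kb from 82951349 to 83215154. Slfn5, Slfn2, Slfn1, Slfn4 and Slfn3 are on the plus strand and Slfn9 and Slfn8 on the minus strand. Slfn1 lies at 83116849 to 83122670 and Slfn4 at 83175186 to 83190216. The annotated coding lengths follow the size groups, with 337 codons in Slfn1 and 378 in Slfn2, 517 in Slfn3 and 602 in Slfn4, and 884 in Slfn5 against 910 each in Slfn8 and Slfn9. Coding sequences were close between Slfn8 and Slfn9 (92.7% identity over 2730 bases) and between Slfn3 and Slfn4 (93.5% over 1550 bases).

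The promoters are shown first because exact motif matches in them split these 7 genes. Windows from 250 bases before to 50 after the gene start were available from RefSeq (GRCm38.p6) for all 7 genes. The core letters of the interferon-stimulated response element, a site bound by interferon regulatory factors, were searched as GAAANNGAAA on both strands. They were found in the 3 group III genes studied and in none of the 4 genes of groups I and II. Slfn14, another long gene of the family outside these 7 (899 codons), had a window without this match. Only exact matches were counted, so the split concerns these letters alone. Looser versions were not searched, and the windows of Slfn1 and Slfn4 printed below hold near matches (aaaactgaaa and, on the other strand, tttcactttt). Across all 32851 windows, 3.44% held this match. Counted by gene, with a match in any of its windows, 3.99% of 27025 genes and 26 of 53 interferon-stimulated genes held it.

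The matches of Slfn8 and Slfn9, near-copies of each other, are shown in capitals in the 250 bases before each start, on the minus strand. The windows of this pair aligned at 85.0% identity over 280 bases. The stretch of Slfn8 is chr11:83020811-83021060 and that of Slfn9 is chr11:82991831-82992080.

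Slfn8: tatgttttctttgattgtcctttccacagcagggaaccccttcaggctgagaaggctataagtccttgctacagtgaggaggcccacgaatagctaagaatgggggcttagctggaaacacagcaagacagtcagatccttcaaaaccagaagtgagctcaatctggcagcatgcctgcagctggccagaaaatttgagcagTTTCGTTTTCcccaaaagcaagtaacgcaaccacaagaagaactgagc
Slfn9: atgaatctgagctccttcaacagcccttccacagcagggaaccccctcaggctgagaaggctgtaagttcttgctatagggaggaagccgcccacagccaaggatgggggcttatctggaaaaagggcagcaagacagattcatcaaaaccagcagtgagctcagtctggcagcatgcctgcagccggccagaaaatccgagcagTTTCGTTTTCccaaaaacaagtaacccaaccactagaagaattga

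The third group III gene, Slfn5, had its match farther out, with its first base 155 bases before the start, inside an adenine-rich run. In Slfn8 and Slfn9 the match began 48 and 45 bases before the start. RefSeq lists another start of Slfn8, and the same match begins 136 bases before that one.

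Slfn1 and Slfn4, the members that changed in bone marrow, shared a stretch of 15 identical bases, starting 74 and 73 bases before their RefSeq starts. The RefSeq start of Slfn1 (83116820) lies before its GENCODE start given above, from which the stretch is 103 bases away, whereas for Slfn4 both annotations give the same start. It is in capitals in the 250 bases before each start, on the plus strand, at chr11:83116570-83116819 for Slfn1 and chr11:83174936-83175185 for Slfn4. It was picked as the longest stretch shared by this pair, so its absence from the windows of other genes among the 32851 searched is a description only. Slfn8 and Slfn9, which were not called, shared a longer one of 20 bases.

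Slfn1: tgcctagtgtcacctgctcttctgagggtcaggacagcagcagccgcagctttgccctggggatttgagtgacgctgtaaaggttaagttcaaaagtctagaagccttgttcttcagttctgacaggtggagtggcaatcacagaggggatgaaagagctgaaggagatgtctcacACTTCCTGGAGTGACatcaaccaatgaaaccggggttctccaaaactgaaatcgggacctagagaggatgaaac
Slfn4: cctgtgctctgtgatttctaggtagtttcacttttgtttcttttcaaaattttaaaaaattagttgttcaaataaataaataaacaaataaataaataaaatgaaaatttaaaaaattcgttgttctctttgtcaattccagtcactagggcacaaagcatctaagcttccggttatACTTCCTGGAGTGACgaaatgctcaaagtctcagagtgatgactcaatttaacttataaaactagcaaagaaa

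The first 8 bases of that stretch, ACTTCCTG, hold the core that ETS-family factors such as PU.1 can bind, and all 4 genes of groups I and II carried them. On either strand they were found in 3.33% of all windows and 3.86% of all genes with a window. The ETS-like letters overlap the longer stretch by construction, and they were chosen after the sequences had been read. They are shown in capitals in 40 bases of each gene, all on the plus strand, at chr11:83116731-83116770, chr11:83065042-83065081, chr11:83191273-83191312 and chr11:83175098-83175137 in the order printed.

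Slfn1: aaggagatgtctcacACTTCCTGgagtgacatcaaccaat
Slfn2: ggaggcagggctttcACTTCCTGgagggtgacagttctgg
Slfn3: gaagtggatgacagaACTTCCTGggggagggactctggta
Slfn4: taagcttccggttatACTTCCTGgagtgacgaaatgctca

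Slfn3 held the same letters a second time on the opposite strand, starting 60 bases before its start. Of the members, Slfn4 alone held the AP-1 letters TGANTCA (both strands), starting 34 bases before its start, a match found in 7.81% of all windows. A match describes letters in a window and shows no binding.

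**Figure D1:**
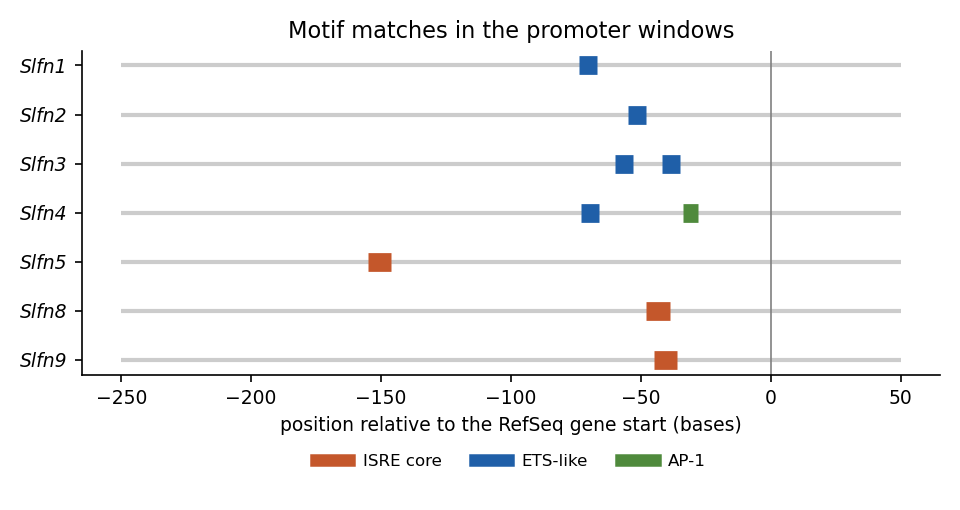
Position of motif matches (coloured blocks) in the RefSeq promoter window of each Schlafen gene, in bases relative to the gene start (vertical line). The 3 group III genes hold the ISRE core and the 4 genes of groups I and II hold the ETS-like letters.

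The targeted genes were read first as a check of the labels. Cgas had a log2 fold change of -1.13 ± 0.155 in bone marrow and -0.92 ± 0.217 in spleen (listed there under an older symbol), and Trex1 of 1.45 ± 0.178 and 2.71 ± 0.199, and the authors' deposited tables give each of the 4 a DESeq2 adjusted p under 0.05. Sting1 did not pass; the authors' deposited tables give -0.13 ± 0.176 (marrow) and -0.02 ± 0.0751 (spleen). The Sting1gt allele is a missense change, so the tag count of its transcript does not check the labels. Values of single libraries were not used here, so the depth and the spread of each library are unknown and each value below is the authors' mean or estimate over the 8 or 10 libraries of a tissue. The labels do not say that each library is another mouse, so p-values measure only how these libraries scatter, and that scatter may be technical. In spleen, all 5 listed genes of the Y chromosome were lower with Cgas-/- marrow, with log2 fold changes from -5.38 to -4.76 (authors' deposited table, all called by DESeq2 at an adjusted p under 0.05). In bone marrow 1 was listed and 0 called. The labels give no sex of donors or hosts. The part of the Y-linked difference in the Schlafen values was not tested.

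Levels ordered the family differently in the 2 tissues. In bone marrow Slfn2 was highest, with a mean normalized count (counts divided by DESeq2 size factors) of 2853 in the authors' deposited table, 46.7% of the family's summed mean. Slfn1 followed at 1236 and Slfn4 at 1206, then Slfn5 at 369, Slfn8 at 254, Slfn9 at 118 and Slfn3 at 76.4, in the authors' deposited table. The short and intermediate genes Slfn2, Slfn1 and Slfn4 thus made up most of the family's tags in marrow.

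In spleen the order was led by the long gene Slfn5, at a mean normalized count of 1176 in the authors' deposited table, 41.4% of the family's sum. Slfn2 was next at 1061, followed by Slfn8 at 224, Slfn1 at 215 and Slfn4 at 154, in the authors' deposited table. Slfn9 at 10.6 and Slfn3 at 2.09 were near the bottom there, below the mean of 20 that 5 of the 7 members reached. Slfn1 and Slfn4 made up 20.2% and 19.7% of the family's sum in marrow and 7.57% and 5.41% in spleen. Slfn5 made up 6.04% in marrow. The tables were normalized separately, so these shares are within each tissue, and whether neighbours in either order (Slfn1 and Slfn4 in marrow, Slfn8 and Slfn1 in spleen) differ beyond the spread between libraries could not be tested.

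**Figure D2:**
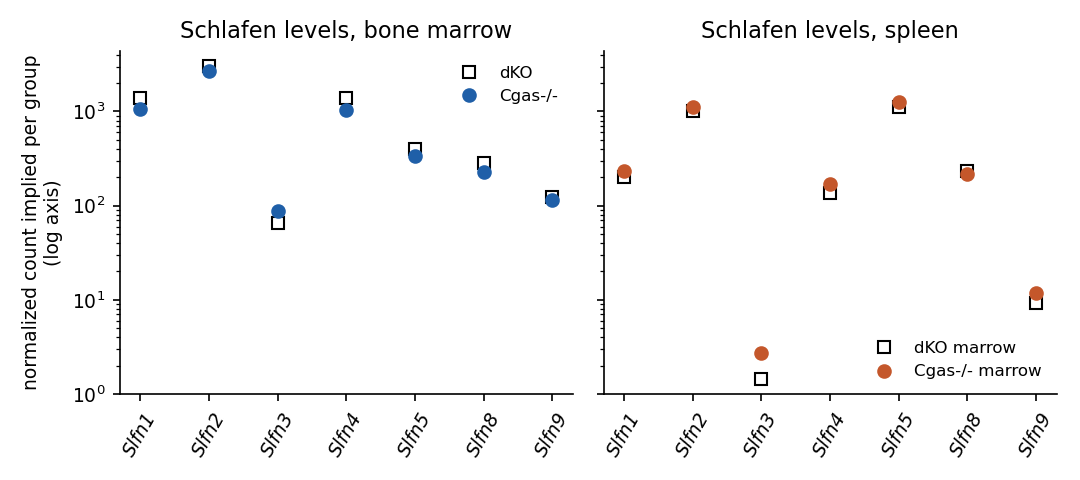
Normalized count of each Schlafen gene (log axis) implied for each group by the authors' mean and log2 fold change, with dKO as open squares and Cgas-/- as filled circles, for bone marrow (left) and spleen (right). Slfn2, Slfn1 and Slfn4 lead in marrow and Slfn5 and Slfn2 in spleen, and the widest gap between groups is that of Slfn3 in spleen (2.73 against 1.45).

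In untransplanted bone marrow, Slfn1 and Slfn4 fell in Cgas-/- cells and no member rose. These 2 of 7 calls stand beside 0.361% of all 14423 genes that were lower at a DESeq2 adjusted p under 0.05, and 0.534% called in either direction. The log2 fold change was below 0 for 6 of the 7 members and for 50.5% of all genes, and the members' median was -0.22. At an unadjusted p under 0.05, 4 members were lower (Slfn1, Slfn2, Slfn4 and Slfn8) and 0 higher, where 4.65% of all genes were lower and 4.19% higher.

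Slfn1, a short member linked to thymocyte growth, fell by 0.38 ± 0.104 on the log2 scale (DESeq2 adjusted p = 0.0436, authors' deposited table), with a 95% interval from -0.59 to -0.18. Splitting the authors' mean by that fold change gives a normalized count of about 1072 in Cgas-/- and 1400 in dKO marrow; the level fell by 23.4% relative to dKO. Slfn4, the myeloid, interferon-induced member, fell by 0.44 ± 0.115 (DESeq2 adjusted p = 0.0334, authors' deposited table), with an interval from -0.66 to -0.21. Its mean splits into about 1024 in Cgas-/- and 1388 in dKO marrow. The intervals of the 2 genes overlap. With a t distribution on 6 degrees of freedom in place of the normal, both had an adjusted p of 0.986, a setting under which 1 of 14423 genes passed. With the Benjamini-Yekutieli correction the adjusted p was 0.443 for Slfn1 and 0.339 for Slfn4, and 29 genes passed.

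The other members did not pass. Slfn2, the most abundant, had a log2 fold change of -0.16 ± 0.0741 (authors' deposited table, DESeq2 adjusted p = 0.463). Its interval, -0.31 to -0.02, spans -19.3% to -1.25% and is the narrowest of the family. Slfn8, a long member of the helicase-like group, had -0.30 ± 0.148 (DESeq2 adjusted p = 0.539, authors' deposited table). For Slfn5, a nuclear member of that group, the authors' deposited table gave -0.22 ± 0.176, and for Slfn9, the near-copy of Slfn8, -0.11 ± 0.178, with DESeq2 adjusted p of 0.833 and 0.947. Standard errors were larger for these less abundant genes, so that Slfn5 would have needed a change of 0.64 and Slfn9 of 0.65 on the log2 scale to pass, more than Slfn1 or Slfn4 showed.

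Slfn3 was the member above 0 in marrow, at 0.39 ± 0.234 (DESeq2 adjusted p = 0.690, authors' deposited table), with an interval from -0.07 to 0.85. It is also the member whose tags are least certain. The last 300 bases of its transcript, where QuantSeq tags fall, matched a transcript of the neighbouring Slfn4 at 93.4% identity over 244 bases. The place of the match within Slfn4 was not located, and the Slfn4 end that was searched had no match to Slfn3 of at least 90% identity. Whether reads of the pair were split by the authors' counting is thus not known. Shorter matches of at least 90% identity to transcripts of other genes were found in the last 300 bases of Slfn8 (132 bases of Vmn1r87 at 90.2%), Slfn2 (67 bases of Gm33246 at 94.0%) and Slfn9 (59 bases of Eif2ak2 at 93.2%). None was found for the ends of Slfn1, Slfn4 and Slfn5. Each end was taken from a single transcript per gene, so ends of other transcripts were not searched. Slfn2 and Slfn5 overlap the opposite-strand genes Gm20234 and Slfn5os, and the strand used in counting is not given in the sources used here, so reads from the overlapping parts could have been assigned to either gene. Gm20234 had a row of its own, with a mean of 10.7 in each of the authors' deposited tables, far below Slfn2.

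**Figure D3:**
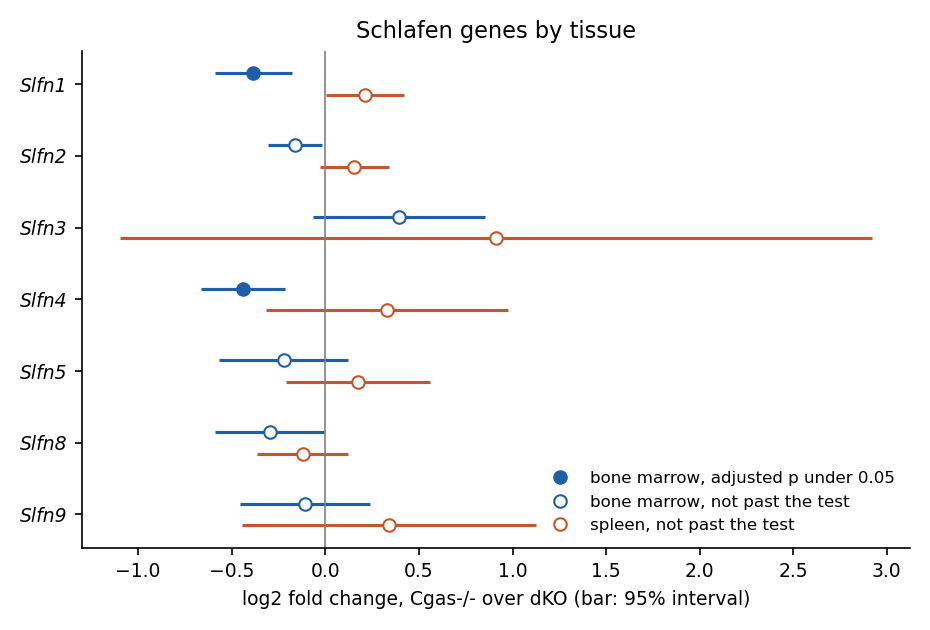
Log2 fold change of each Schlafen gene, Cgas-/- over dKO, in bone marrow (blue) and spleen (orange), with 95% intervals as bars and filled points for a DESeq2 adjusted p under 0.05. The filled points are Slfn1 (-0.38) and Slfn4 (-0.44) in bone marrow, and the widest interval is that of Slfn3 in spleen.

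Other genes of the family gave no DESeq2 call. Slfn14, expressed in the erythroid and platelet lineages, had log2 fold changes of 0.89 ± 0.417 (marrow, DESeq2 adjusted p = 0.497) and -0.16 ± 1.08 (spleen) in the authors' deposited tables, at means of 21.4 and 4.42. In marrow its unadjusted DESeq2 p was 0.0328, with an interval from 0.07 to 1.71, so it was higher at the level where 4.19% of all genes were. Slfn10-ps, a pseudogene whose 3' end matched Slfn8 at 93.0% identity, had -0.14 ± 0.316 and -0.05 ± 0.388 in the authors' deposited tables. Slfnl1, a Schlafen-like gene on chromosome 4, was listed in neither.

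Genes around the cluster did not pass either. Within 500 kb on both sides, 20 genes outside the family had a mean of at least 20 in marrow, with a median log2 fold change of -0.10, and the authors' deposited table has 0 DESeq2 calls among them. There were 4 at an unadjusted p under 0.05, named after their values were seen: Rffl (-0.31), Ap2b1 (-0.31) and the chemokine gene Ccl9 (-0.35) lower and Nle1 (0.55) higher, in the authors' deposited table. In spleen, 0 of 16 passed the DESeq2 test or an unadjusted p of 0.05, where 0.133% and 3.02% of all genes did.

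**Figure D4:**
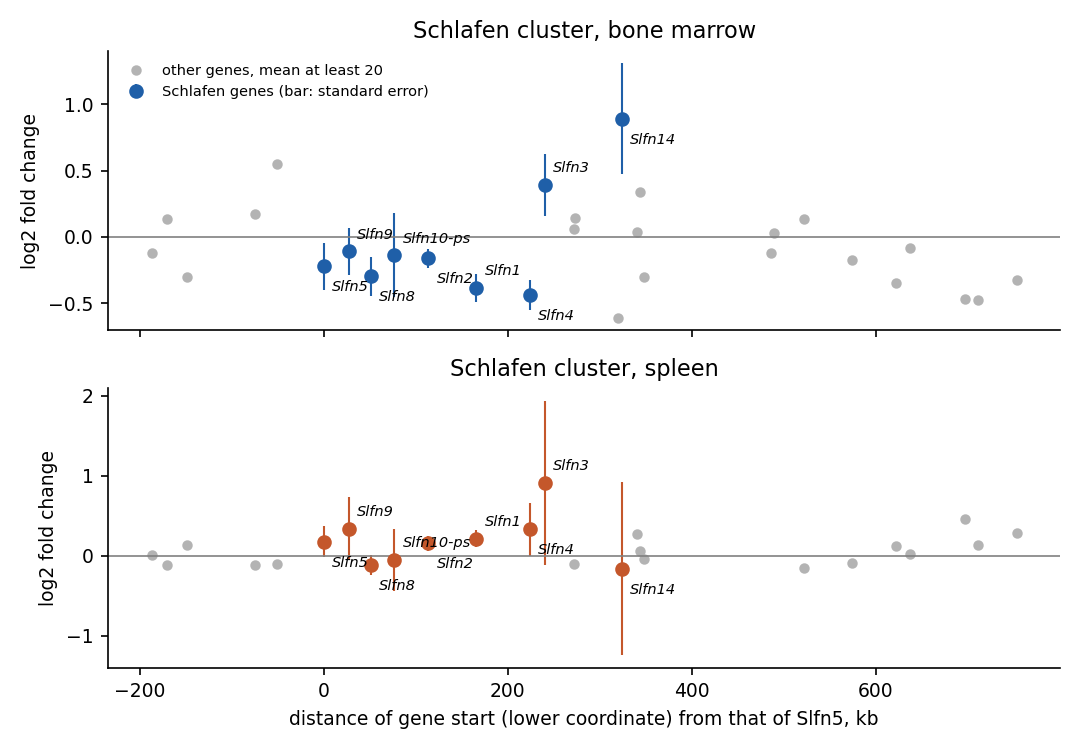
Log2 fold change of Schlafen genes (coloured, bars are standard errors) and of other genes with a mean of at least 20 (grey) against the distance of each gene's lower coordinate from that of Slfn5, in kb, for bone marrow (top) and spleen (bottom). Slfn1 and Slfn4 are the lowest of the family in marrow, while Slfn3, the next gene after Slfn4, is above 0.

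Some interferon-stimulated genes fell in the same marrow. Of 70 on a list without Schlafen genes, 68 were measured, and DESeq2 called 8 lower and 0 higher (authors' deposited table), where 0.361% of all genes were called lower. By sign, 62 of the 68 were below 0, with a median of -0.32, and 60 did not pass. The 8 calls became 0 with the t distribution and 4 with the Benjamini-Yekutieli correction. Oas2, an oligoadenylate synthetase gene, fell by 1.20 ± 0.253 and Rtp4, an interferon-induced receptor transporter, by 0.92 ± 0.195 (authors' deposited table, both called by DESeq2). Of the 68, 23 had a lower log2 fold change than Slfn4 and 27 a lower one than Slfn1. The members that were not called lay higher, with 37 below Slfn8, 42 below Slfn5, 48 below Slfn2, 55 below Slfn9 and all 68 below Slfn3.

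Markers of 3 cell types held DESeq2 calls in the same libraries. Over all genes in marrow, 0.361% were called lower and 0.534% in either direction, and 50.5% were below 0. At an unadjusted p under 0.05, 4.65% of all genes were lower and 4.19% higher. In bulk RNA, fewer cells of a type and less RNA per cell cannot be told apart. Monocyte markers, of cells in which Slfn4 and Slfn2 are known to be expressed, had 10 of 12 below 0 and a median of -0.34. At an unadjusted p under 0.05, 6 were lower and 0 higher, and 4 had DESeq2 calls in the authors' deposited table, all lower. One of the 4, Ms4a4c (-0.60 ± 0.150), is also on the interferon-stimulated list and among its 8 calls. Their summed normalized count, split by fold change, was about 20203 in Cgas-/- and 24847 in dKO marrow, and the least abundant of them had a mean of 26.5. Neutrophil markers had 14 of 15 below 0, with a median of -0.10, 0 DESeq2 calls and 2 lower at an unadjusted p under 0.05, and summed to about 1033310 and 1139522. T cell markers, of cells known for Slfn1 and Slfn2, were on both sides of 0 (11 of 24 below, median 0.03, 0 DESeq2 calls, 1 lower and 1 higher at an unadjusted p under 0.05), with sums of 2850 and 2762. Erythroid markers had 13 of 14 above 0 and a median of 0.32, with 1 DESeq2 call, higher. At an unadjusted p under 0.05, 9 were higher and 0 lower, and sums were about 66325 in Cgas-/- and 36749 in dKO marrow. B cell progenitor markers had 9 of 10 above 0 and a median of 0.35, with 1 DESeq2 call, higher. At an unadjusted p under 0.05, 4 were higher and 0 lower, and sums were about 5134 and 4385. Among these 4 was Il7r (0.20 ± 0.0968), which is also the T cell marker counted as higher above. Lists for NK cells, mature B cells, red pulp macrophages, plasmacytoid dendritic cells and megakaryocytes had 0 DESeq2 calls, medians from -0.17 to 0.13, and 1 gene lower and 2 higher at an unadjusted p under 0.05. The part of these shifts in the Schlafen values was not tested.

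In spleens of dKO recipients, DESeq2 called no Schlafen gene, whereas in the authors' deposited table it called 0.133% of 21830 genes. At an unadjusted p under 0.05 there was 1, Slfn1, higher, beside 1.17% of all genes higher and 3.02% in either direction. The log2 fold change was above 0 for 6 of the 7 members and for 45% of all genes, and the members' median was 0.21.

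Slfn1 had a log2 fold change of 0.21 ± 0.107 in spleen (DESeq2 adjusted p = 0.999997, unadjusted p = 0.0480, authors' deposited table). Its mean splits into a normalized count of about 231 with Cgas-/- marrow and 199 with dKO marrow, and the interval from 0.00 to 0.42 reaches up to a 34.0% difference. Slfn2 had 0.15 ± 0.0944, with an interval from -0.03 to 0.34, and Slfn5, the leading member there, 0.17 ± 0.196, from -0.21 to 0.56, in the authors' deposited table. Slfn8 was the member below 0, at -0.12 ± 0.125 in the authors' deposited table. These 4 genes were measured closely enough that changes beyond 0.56 on the log2 scale, in either direction, lie outside their intervals.

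For Slfn4 the spleen was less informative, with 0.33 ± 0.330 in the authors' deposited table and an interval from -0.32 to 0.98. A change of 1.35 on the log2 scale would have been needed for it to pass. Slfn9, at 0.34 ± 0.399, and Slfn3, at 0.91 ± 1.03 in the authors' deposited table, rested on means of 10.6 and 2.09, where a change of 1.64 on the log2 scale would have been needed for Slfn9 to pass and a larger one for Slfn3. Interferon-stimulated genes had 55 of 68 above 0 in spleen, a median of 0.09 and 0 DESeq2 calls in the authors' deposited table, while 4 were higher and 1 lower at an unadjusted p under 0.05. T cell markers, in which Slfn1 and Slfn2 are known to be expressed, had 23 of 24 above 0, a median of 0.10, and sums of about 15494 with Cgas-/- and 14360 with dKO marrow, with 0 DESeq2 calls and 2 higher at an unadjusted p under 0.05. Monocyte markers had 6 of 12 above 0 and a median of -0.01, with 0 called and 0 at an unadjusted p under 0.05.

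Several other marker lists in spleen had medians farther below 0, with 0 DESeq2 calls in each. Over all genes in spleen, 0.133% were called, 55% were below 0 and 3.02% had an unadjusted p under 0.05. Erythroid markers had 14 of 14 below 0 and a median of -0.69 (2 lower at an unadjusted p under 0.05), with levels that summed to about 17773 with Cgas-/- and 26101 with dKO marrow. Neutrophil markers had 13 of 15 below 0 and a median of -0.47 (unadjusted p under 0.05 for 1, lower), with levels that summed to about 26137 and 31344. Red pulp macrophage markers had 10 of 11 below 0 (median -0.20, 0 at an unadjusted p under 0.05) and NK cell markers 7 of 8 (median -0.18, 1 lower). Plasmacytoid dendritic cell markers had 5 of 8 below 0 (median -0.21, 0 at that level) and mature B cell markers 6 of 11 (median -0.01, 1 lower). B cell progenitor markers had 5 of 7 above 0 (median 0.03) and megakaryocyte markers 5 of 6 (median 0.09), with 0 at that level. These lists held 0 DESeq2 calls as well. The part of these cell types in the Schlafen values was not tested.

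Set side by side, 5 of the 7 members (Slfn1, Slfn2, Slfn4, Slfn5 and Slfn9) had a log2 fold change below 0 in marrow and above 0 in spleen, a pair of signs shown by 23.9% of the 13853 genes listed in both tables and by 49 of 68 interferon-stimulated genes. The difference, spleen minus marrow, was above 0 for all 7 members and for 47.6% of all genes, with medians of 0.45 and -0.01. When the difference itself was tested (a two-sided normal test with the root of the summed squared standard errors, Benjamini-Hochberg over all 13853 genes), no member passed, and 8 genes (0.0577%) did. At an unadjusted p under 0.05 there were 3 members, Slfn1, Slfn2 and Slfn4, where 4.83% of all genes were.

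The difference of Slfn1 was 0.60 ± 0.150, with an interval from 0.30 to 0.89 (unadjusted p = 6.57e-05, adjusted p = 0.0828), ranked 11 of 13853 by its p. For Slfn2 it was 0.32 ± 0.120 (adjusted p = 0.774) and for Slfn4 0.77 ± 0.350 (adjusted p = 0.973). Slfn4 had the larger estimate of these 3 and also the larger error. The remaining differences ran from 0.18 ± 0.194 for Slfn8 to 0.52 ± 1.05 for Slfn3. The 2 comparisons share no library, but they differ in tissue, in transplantation and in the host, and the spleen groups also differ in Y-linked genes, so these cannot be told apart here.

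**Figure D5:**
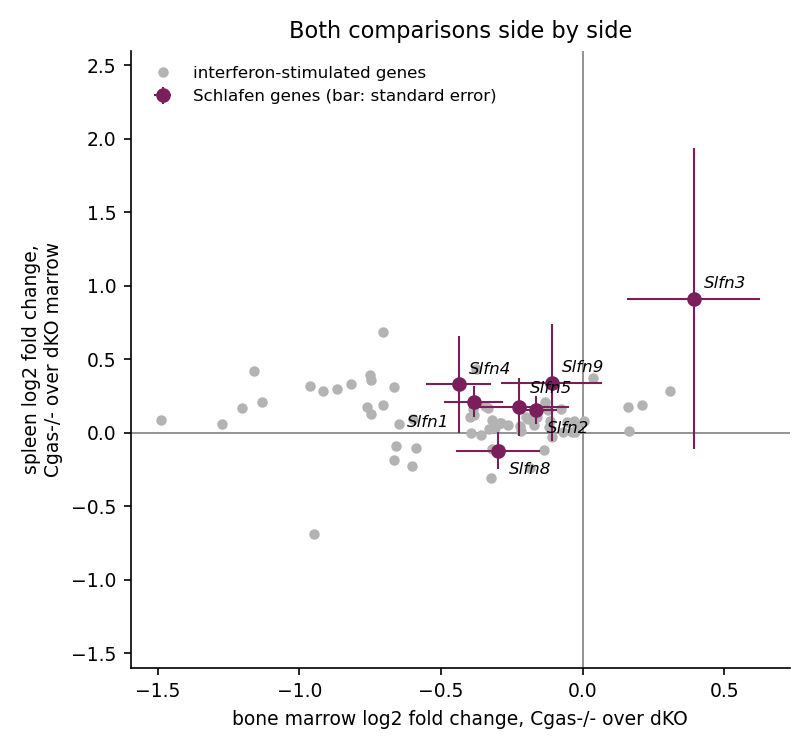
Log2 fold change in bone marrow (x axis) against spleen (y axis) for Schlafen genes (purple, bars are standard errors) and 68 interferon-stimulated genes (grey). Of the 7 Schlafen genes, 5 lie at the upper left, lower in marrow and higher in spleen by sign, as do 49 of the 68.

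The genes closest to each called member over these 2 comparisons were found by the distance between their pairs of log2 fold changes, among 10064 genes with a mean of at least 20 in both tables. For Slfn1 they were Gtdc1 (distance 0.000680), Dhx58 (0.00417), which encodes the RNA sensor LGP2, and Bbs9 (0.0136). For Slfn4 they were Dusp23 (0.0246), Kctd6 (0.0432) and Bbs4 (0.0597). In marrow their standard errors, from 0.192 for Dhx58 to 0.392 for Bbs4, were larger than those of Slfn1 and Slfn4, and DESeq2 called none of the 6 in either of the authors' deposited tables (by an unadjusted p under 0.05, Dhx58 was lower in marrow and 0 passed in spleen). A likeness over 2 comparisons is a weak one.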

How the data were processed

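Libraries were made with the SPLIT and QuantSeq forward kits, per the labels' protocols. Per the submitters' processing notes, the authors used DESeq2, Partek, STAR 2.6.1 and bcl2fastq 1.8.4 on build mm10. Not given in the sources used here are the counter, the annotation, the strand and the gene filter. Each table holds the authors' deposited DESeq2 results. The mean normalized count is a signal the authors averaged over the libraries of a comparison, the log2 fold change with its standard error comes from the authors' model, the deposited Wald score is their ratio, and the deposited p-value is two-sided and normal, with Benjamini-Hochberg adjustment over all genes of a table. Each relation was checked by recomputation. The lowest mean was 6.46 in bone marrow and 0.239 in spleen, so the tables differ in their filter.

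The members and gene lists were chosen with earlier results of these data known. The rule for named genes takes every Schlafen gene, the targeted genes, the 2 genes of a list with the smallest adjusted p and the 3 genes nearest to a called member. Computed here were 95% normal intervals, group levels implied by the mean and the fold change (assuming that the fold change is the ratio of group means), and the difference between tissues over symbols matched through RefSeq synonyms. The code for this difference was run on simulated data with normal errors of the deposited size. Such data share the assumptions of the test, so they cannot show whether those errors are right. Group sums add implied levels. Alternatives were the genes adjusted over, a t distribution, the Benjamini-Yekutieli correction and centring. Transcript ends were compared with blastn 2.17.0. Python 3.11.15, pandas 2.3.3, scipy 1.17.1, statsmodels 0.14.6 and matplotlib 3.10.9 were used.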

Additional observations from a re-analysis of the deposited data

How the results depend on the processing

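The 2 Schlafen calls in bone marrow became 0 with a t distribution and 0 with the Benjamini-Yekutieli correction. They stayed 2 when p-values were adjusted over genes with a mean of at least 20 or over genes listed in both tables, and after centring on the median. The 8 interferon-stimulated genes called lower in marrow became 0 with a t distribution and 4 with the Benjamini-Yekutieli correction, alternatives chosen for this count after seeing the data, and were 8 or 9 under the other settings run. Counts of 0 members in spleen and 0 between tissues, and of 6 members below 0 in marrow and 1 in spleen, stayed the same under the alternatives run for each, and no member changed sign after centring. The adjusted p of the Slfn1 difference between tissues ran from 0.0601 (over genes with a mean of at least 20) to 0.999 (t distribution) over its alternatives. No paired analysis was possible because the tables hold no values per library, and for the same reason leaving out each replicate was not run. In spleen, Slfn3 and Slfn9 had means below 20 and were not part of that filter. The lack of values per library limits every statement on spread.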
